A study of Mus musculus with 4 samples.

Results

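Chromatin accessibility was described at 36 mouse axon guidance genes, namely 13 genes for ligands and 23 for their receptors, out of 21887 protein-coding genes on the assembled chromosomes. The genes were taken from families of guidance ligands and receptors and leave out other members of the same families. Those other members are described further below. The rule uses no measured value, although earlier results of these data were known when the list was drawn up. Each of the 36 genes was followed through the accessible regions (peaks) that overlapped its window. The window is the mm10 gene body with the 50 kb on either side. The 4 libraries came from embryonic stem cells of mouse blastocysts: Cdc14ab KO cells at day 5, wild-type (WT) cells at day 5, Cdc14ab KO cells at day 0 and wild-type cells at day 0. Cdc14a and Cdc14b encode phosphatases that remove phosphates placed by cyclin-dependent kinases. The deleted stretches are not given in the sources used here, so peak positions could not check the knockout. Day 0 cells were kept in medium with LIF, a cytokine that holds them in the pluripotent state. Day 5 cells had spent 5 days in N2B27 neural differentiation medium with the growth factors EGF and FGF2. All cells had been grown over feeder cells, which were removed by plating at low density before the assay. The 4 libraries carry the same clone or replicate label, number 3, which does not say whether the libraries of a genotype came from 1 clone, so differences between clones and between genotypes cannot be told apart. Each group held 1 library of nuclei, so no difference had a replicate check, no test was possible and every value describes these 4 libraries.

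Axon guidance proteins steer growing nerve fibres by attraction and repulsion. Slits are secreted proteins that repel axons through Robo receptors. Netrin 1 attracts axons through Dcc and neogenin and repels them through Unc5 receptors. Eph receptors are tyrosine kinases that bind ephrins on neighbouring cells, and the class 3 semaphorins are secreted ligands of complexes of neuropilins and plexins. The same families also shape blood vessels, neural crest migration and tissue boundaries, so their activity is not restricted to neurons.

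The deposited lists held 227878 peaks in KO cells at day 5, 189571 in WT cells at day 5, 222257 in KO cells at day 0 and 198860 in WT cells at day 0. The lists give positions without heights, and no read depth is known. A region without a peak may have had too few reads. As each list pools the nuclei of a library, a more accessible region and a larger share of cells that use it cannot be told apart. The KO lists were the longer ones at both days. Locus values are therefore given as the log2 ratio of covered bp with 500 bp added to each side, minus the median of that ratio over the 20806 protein-coding genes with any covered base. That median was 0.31 for KO over WT cells at day 5, 0.11 at day 0, -0.03 for day 5 over day 0 in KO cells and -0.22 in WT cells. A locus was called higher or lower when it lay at least 1.5-fold from the median locus and had at least 2000 bp covered on average, a minimum that all 36 guidance genes passed.

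The wild-type library of day 5 stood apart from the others. It had a promoter peak at 3 of 4 Y-linked genes examined, and each of the other libraries had one at 0 of 4. Every library listed some peaks on the Y chromosome, 14 in KO cells and 20 in WT cells at day 5, and 16 in each genotype at day 0. Whether the 2 WT libraries came from the same line is therefore not settled by their shared label. In every result that uses the WT library of day 5, a difference between lines cannot be told apart from one between days or genotypes. These results are the day 5 comparison of genotypes, the wild-type time course, the change of the genotype ratio between days and the listing patterns. The comparison of genotypes at day 0 and the knockout time course do not use it. Among markers of the labelled cells, 12 of 12 stem cell genes had a promoter peak in each library except WT cells at day 5, where Lin28a had none and the count was 11. All 12 neural progenitor markers had a promoter peak in every library, so these peaks did not separate the days.

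Nearly all guidance promoters were already accessible in stem cells. A promoter peak (any covered base within 1 kb of a gene start) was listed for 35 of 36 genes in KO cells at day 5, 34 in WT cells at day 5, 34 in KO cells at day 0 and 36 in WT cells at day 0. Across all protein-coding genes the shares were 75.2% in KO cells and 73.4% in WT cells at day 5, and 74.6% in KO cells and 73.6% in WT cells at day 0. In 32 of the 36 genes the peak was listed in all 4 libraries, against 69.9% of all genes. The exceptions were Slit1, Efna5, Sema3a and Nrp1. At day 0, 2 genes had a promoter peak in WT cells alone (Efna5 and Sema3a), beside 1.27% of all genes, and 0 in KO cells alone, beside 2.2%. At day 5, 1 gene (Nrp1) had one in KO cells alone, beside 3.33% of all genes, and 0 in WT cells alone, beside 1.54%. Over time KO cells listed 2 promoters at day 5 only (Efna5 and Sema3a) and 1 at day 0 only (Slit1), beside 2.49% and 1.9% of all genes. WT cells listed 0 at day 5 only and 2 at day 0 only (Slit1 and Nrp1), beside 2.44% and 2.72%. Starts came from RefSeq promoters for 29 genes. For Slit1, Ntn1, Dcc, Unc5d, Sema6a, Plxna1 and Plxna4 the more accessible gene end was used, which may be the 3' end. That end was picked by its covered bp over the 4 libraries, so the choice itself favours a promoter peak at these genes. The counts for Slit1 depend on this choice, because its other end had peaks at day 5 only in both genotypes.

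Sema3a encodes a secreted repellent, and its only start in the table lies 272.0 kb inside the annotated gene. The peak over that start covered 909 bp of its window in KO cells and 744 bp in WT cells at day 5, and 0 bp in KO cells and 840 bp in WT cells at day 0. It was thus missing from KO cells at day 0 alone. Nrp1 encodes neuropilin 1, a receptor for class 3 semaphorins and vascular growth factor. Within 1 kb of its start, peaks covered 797 bp in KO cells and 0 bp in WT cells at day 5, and 401 bp in KO cells and 703 bp in WT cells at day 0. The library of WT cells at day 5 alone had none, and none of the Nrp1 peaks overlapped the start base itself.

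At Efna5, which encodes the membrane-anchored ligand ephrin A5, peaks covered 688 bp of the window in KO cells and 43 bp in WT cells at day 5. At day 0 they covered 0 bp in KO cells and 4 bp in WT cells. Only the peak of KO cells at day 5 lay mostly inside the window, and the WT counts rest on the edges of peaks that begin further inside the gene. Robo2, which encodes a Slit receptor, has 3 starts in the table. The start at position 75092770 of chromosome 16 carried a peak at day 5 in both genotypes and in neither at day 0, and the other two carried one in every library. Around that start peaks covered 912 bp in KO cells and 774 bp in WT cells at day 5, and 0 bp in both genotypes at day 0. Slit1, a ligand gene, likewise differed between days at its ends. Its low-coordinate end had 0 bp in both genotypes at day 5, against 882 bp in KO cells and 944 bp in WT cells at day 0. Its high-coordinate end had 935 bp in KO cells and 745 bp in WT cells at day 5, against 0 bp in both at day 0. Which of these ends holds the Slit1 promoter was not checked.

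The 250 bases before the 4 annotated starts whose peak differed between libraries are shown, because they range from CG-poor to CG-rich. They are RefSeq sequences of GRCm38.p6, the assembly of mm10, read 5' to 3' on the strand of the gene. They lie at chr5:13396534-13396783 on the plus strand for Sema3a, chr8:128358823-128359072 on the plus strand for Nrp1, chr17:62881318-62881567 on the minus strand for Efna5 and chr16:75092771-75093020 on the minus strand for Robo2. Capitals mark matches on either strand to the SOX motifs CATTGT and CTTTGT or to the GC box GGGCGG, which reads CCGCCC where the match is on the other strand.

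Sema3a: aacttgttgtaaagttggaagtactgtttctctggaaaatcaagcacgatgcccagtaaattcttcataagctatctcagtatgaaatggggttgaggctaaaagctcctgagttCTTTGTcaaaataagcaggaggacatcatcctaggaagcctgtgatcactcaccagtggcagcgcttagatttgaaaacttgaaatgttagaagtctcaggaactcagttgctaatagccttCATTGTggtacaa

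Nrp1: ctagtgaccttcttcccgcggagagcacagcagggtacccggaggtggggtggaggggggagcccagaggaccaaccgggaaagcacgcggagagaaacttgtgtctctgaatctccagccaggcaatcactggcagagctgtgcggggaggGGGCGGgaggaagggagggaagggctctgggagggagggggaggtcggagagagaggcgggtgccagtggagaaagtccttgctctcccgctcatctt

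Efna5: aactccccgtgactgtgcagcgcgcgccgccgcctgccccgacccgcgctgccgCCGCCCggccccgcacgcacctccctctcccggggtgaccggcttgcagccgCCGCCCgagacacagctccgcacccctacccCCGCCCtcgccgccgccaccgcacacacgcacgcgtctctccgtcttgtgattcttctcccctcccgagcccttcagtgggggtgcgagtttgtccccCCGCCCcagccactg

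Robo2: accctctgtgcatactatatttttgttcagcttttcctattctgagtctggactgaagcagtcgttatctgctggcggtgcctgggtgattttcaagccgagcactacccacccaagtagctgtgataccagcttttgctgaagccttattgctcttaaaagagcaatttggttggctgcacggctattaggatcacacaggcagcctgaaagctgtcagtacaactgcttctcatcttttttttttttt

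The Sema3a stretch held 2 CG dinucleotides and 1 match to each SOX motif, while the Efna5 stretch held 32 CG dinucleotides and 4 GC boxes. Nrp1 had 11 CG dinucleotides with 1 GC box, and the Robo2 start had 4 and no match to any motif searched. The median over 32851 promoters was 6 CG dinucleotides, and over the 33 starts of 29 guidance genes it was 17. Of these 33, Sema3a had the fewest and Neo1, the gene of neogenin, the most, at 45. The motif CATTGT occurred in 10.7% of all promoters, CTTTGT in 16.5% and GGGCGG in 32.7%. Also searched on both strands were the octamer ATGCNAAT, found in 2.86% of all promoters, CCAAT (33.8%), the E-box CAGCTG (13.0%) and TATAAA (12.4%). None of these 4 occurred in the stretches shown. A match describes these letters only.

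The time course was examined first, to ask what 5 days in neural medium did to the guidance loci in each genotype. More loci were higher at day 5 in WT cells than in KO cells. In KO cells 5 of 36 loci were called higher and 1 lower, beside 5.37% and 1.71% of all protein-coding genes, and 22 lay above the median locus, beside 48.4%. In WT cells 16 were called higher and 0 lower, beside 9.05% and 4.61%, and 28 lay above the median locus, beside 48.9%. The median guidance locus had a log2 ratio of 0.16 in KO cells and 0.53 in WT cells, with a median of -0.01 over all genes passing the minimum in each genotype. These 2 time courses share no library. Robo2, Dcc, Epha7 and Efna5 were called higher in both, which is 4 of the 5 genes of KO cells and 4 of the 16 of WT cells. The share of all genes called higher in both was not computed, so this overlap has no background beside it. All 4 have windows of 200 kb or more. Of all genes with such windows, 8.01% were called higher in KO cells and 23.0% in WT cells. Windows of 50 kb on each side of 1 start per gene, the one of lowest coordinate, were also used. In these, only Robo2 of these 4 kept its call in both genotypes, at 0.72 in KO cells and 1.40 in WT cells. The Robo2 start used lies 1035.6 kb inside the gene, and its other starts lay outside that window. In the same start windows Dcc stood at 0.0025, Epha7 at 0.56, Efna5 at 0.38 and Epha5 at 0.39 in KO cells, all short of 1.5-fold. In WT cells Ephb1 (0.38), Efna5 (0.45) and Plxna4 (0.23) fell short of it around the starts.

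**Figure D1:**
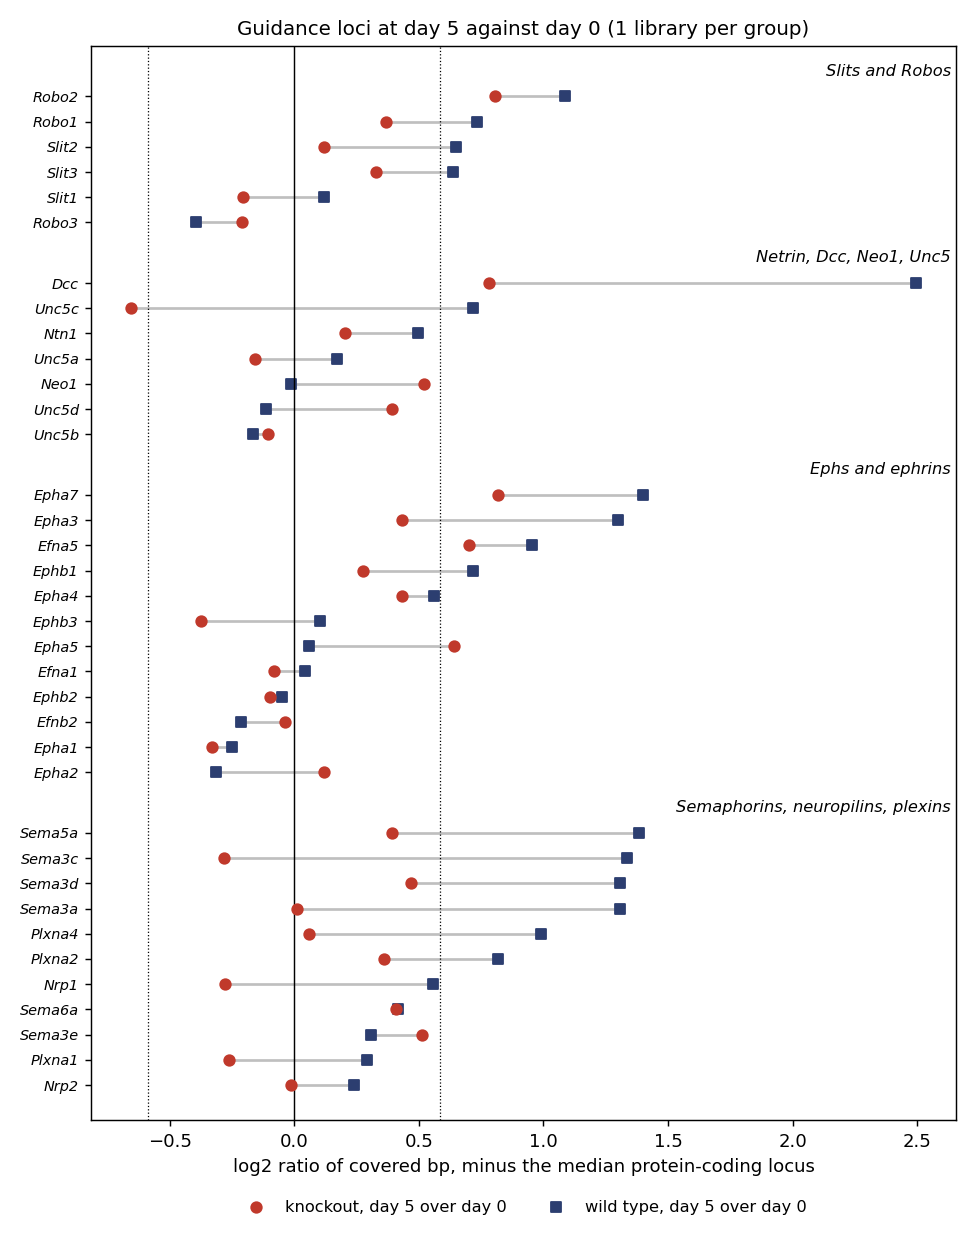
Centred log2 ratio of covered bp at day 5 over day 0 for each guidance gene (x axis), with KO cells as circles and WT cells as squares, grouped by family. Dotted lines mark 1.5-fold. In WT cells 16 genes lie beyond the right line and in KO cells 5 do, and Dcc shows the widest gap.

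Among Slits and Robos, Robo2 had the highest value at day 5 in both genotypes, 0.81 in KO cells and 1.09 in WT cells. Its window of 1655.5 kb held 54.6 kb of peaks in KO cells at day 5 against 31.6 kb in KO cells at day 0. In WT cells it held 66.2 kb at day 5 against 36.1 kb at day 0. Robo2 was thus the Slit receptor locus with the largest relative gain in each genotype. Robo1, another Slit receptor, stood at 0.37 in KO cells and 0.73 in WT cells. The ligand genes Slit2 and Slit3 had values of 0.12 and 0.33 in KO cells and of 0.65 and 0.64 in WT cells. The 4 loci called higher in WT cells in this family were Slit2, Slit3, Robo1 and Robo2, and of these only Robo2 was called in KO cells. Robo3, a Robo family member known for switching midline crossing, was the lowest, at -0.21 in KO cells and -0.40 in WT cells, with Slit1 at -0.21 and 0.12. The Robo3 window also holds Robo4 and Hepacam.

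In the netrin group the widest difference was at Dcc, the receptor that mediates attraction to netrin 1. Its window of 1197.6 kb on chromosome 18 (gene at 71253613 to 72351228) held 23.0 kb of peaks in KO cells at day 5 and 48.6 kb in WT cells at day 5. At day 0 it held 13.4 kb in KO cells and 9.66 kb in WT cells. The centred ratio of day 5 over day 0 was 0.78 in KO cells and 2.50 in WT cells, the highest of all 36 genes in WT cells. Unc5c, which encodes a repulsive netrin receptor, had opposite signs in the genotypes, at -0.66 in KO cells and 0.72 in WT cells. Its window (gene on chromosome 3, 141465564 to 141834924) held 14.4 kb in KO cells and 26.1 kb in WT cells at day 5, and 23.4 kb in KO cells and 18.4 kb in WT cells at day 0. Unc5c was the only guidance locus called lower at day 5 in KO cells, and within 50 kb of its start alone this value was 0.0462. The ligand gene Ntn1 stood at 0.20 in KO cells and 0.50 in WT cells. Neo1 and Unc5d had the opposite order, at 0.52 and 0.39 in KO cells and at -0.01 and -0.11 in WT cells. Unc5a and Unc5b, further Unc5 receptors, stayed between -0.17 and 0.17 in both genotypes.

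Among Eph receptors, Epha7 was called higher in both genotypes, with 0.82 in KO cells and 1.40 in WT cells. Peaks covered 13.7 kb of its window in KO cells at day 5 against 7.72 kb in KO cells at day 0, and 15.8 kb in WT cells at day 5 against 6.72 kb in WT cells at day 0. Efna5 was likewise called in both, at 0.70 in KO cells and 0.95 in WT cells. Epha3 and Ephb1 passed 1.5-fold in WT cells, at 1.30 and 0.72, and stood at 0.43 and 0.28 in KO cells. Epha5 passed it in KO cells, at 0.64, and stood at 0.06 in WT cells. Epha4, a receptor for ephrins of both classes, had 0.43 in KO cells and 0.56 in WT cells. The remaining 6 genes of the group, Epha1, Epha2, Ephb2, Ephb3, Efna1 and Efnb2, lay between -0.37 and 0.12 in KO cells and between -0.31 and 0.10 in WT cells. The lowest of these were Ephb3 in KO cells and Epha2 in WT cells. Epha2 is a receptor known to be expressed in embryonic stem cells.

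Of the 4 groups that the 36 genes form, the 11 semaphorins, neuropilins and plexins had the widest gap between the group medians of the time courses. In WT cells all 11 loci lay above the median locus at day 5 and 6 were called higher, with a group median of 0.82. In KO cells 7 of 11 lay above it, 0 were called and the group median was 0.06. The 20 other semaphorin and plexin genes, outside the 36, had medians of -0.06 in KO cells and 0.09 in WT cells. Of these 20, 0 were called higher in KO cells and 1 in WT cells, beside 5.37% and 9.05% of all genes. Sema5a, a transmembrane semaphorin gene, had 0.39 in KO cells and 1.38 in WT cells. The secreted class 3 ligands Sema3a, Sema3c and Sema3d stood at 0.01, -0.28 and 0.47 in KO cells, and at 1.31, 1.33 and 1.31 in WT cells. Sema3e, a ligand that binds a plexin without a neuropilin, had 0.51 in KO cells and 0.31 in WT cells. The plexin receptor genes Plxna2 and Plxna4 had 0.36 and 0.06 in KO cells, and 0.82 and 0.99 in WT cells. Sema6a, whose product is a membrane-bound ligand of plexins, had 0.41 in both genotypes. The lowest values were those of Sema3c and Nrp1 (-0.28 each) in KO cells and of Nrp2 (0.24) in WT cells.

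In WT cells most marker lists, like the guidance loci, had day 5 over day 0 medians above that of all genes. Mesoderm and stem cell markers had medians below that of all genes. Of all genes, 5.37% were called higher at day 5 in KO cells and 9.05% in WT cells. Fibroblast markers were examined because the culture had contained feeder cells. Of 10 fibroblast marker loci, 6 were called higher at day 5 in WT cells (Col3a1, Dcn, Fbn1, Lum, Postn and Twist1) and 0 in KO cells, with list medians of -0.05 in KO cells and 0.72 in WT cells. Their windows summed to 142.6 kb in KO cells and 141.5 kb in WT cells at day 5, and 147.2 kb in KO cells and 111.0 kb in WT cells at day 0. All 10 had a promoter peak in both genotypes at day 5, while Lum had none in either genotype at day 0 and Col3a1 none in WT cells at day 0. For neural progenitor markers the medians were -0.03 in KO cells and 0.24 in WT cells, with 0 of 12 called higher in each. Neuronal markers had medians of 0.04 in KO cells and 0.32 in WT cells, with 2 of 12 called higher in KO cells (Dcx and Syt1) and 4 in WT cells (Dcx, Map2, Snap25 and Syt1). Of 8 endoderm markers, 2 were called higher in KO cells (Foxa2 and Sox17) and 4 in WT cells (Afp, Dab2, Foxa2 and Sox7), with medians of 0.19 in KO cells and 0.52 in WT cells, and all 8 lay above the median locus in WT cells. Endoderm windows summed to 132.5 kb in KO cells and 102.0 kb in WT cells at day 5, and 118.9 kb in KO cells and 90.8 kb in WT cells at day 0. Promoter peaks were listed at 7 of the 8 in KO cells and 5 in WT cells at day 5, and at 6 in KO cells and 4 in WT cells at day 0, with none at Afp in any library. Medians of 6 glial markers were 0.02 in KO cells and 0.18 in WT cells, and those of 6 mesoderm markers -0.09 in KO cells and -0.20 in WT cells. Those of 12 stem cell markers were -0.06 in KO cells and -0.13 in WT cells. The part of other cell types in the guidance values was not tested.

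Guidance genes are long, and long loci were called more often than short ones in the wild-type time course. The median guidance window measured 283.15 kb, against 117.1 kb for all genes, and 27 of 36 windows reached 200 kb. All loci called higher or lower in the time courses belonged to these 27, and 0 of the 9 shorter windows were called in any comparison. Among all genes with windows of 200 kb or more, 8.01% were called higher and 0.831% lower at day 5 in KO cells, and 23.0% higher and 1.45% lower in WT cells. Of genes with shorter windows 5.0% were called higher in KO cells and 7.05% in WT cells. Of the 27 long guidance loci, 18.5% were called higher in KO cells and 59.3% in WT cells. The median of the long guidance loci was 0.37 in KO cells and 0.72 in WT cells, against 0.10 and 0.21 for all long loci in the same genotypes.

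KO cells were then set against WT cells at day 0, to ask whether the loci differed before differentiation. Few did. Of 36 loci, 2 were called higher in KO cells and 0 lower, beside 3.48% and 1.71% of all genes, so the counts lay near the background. Among all loci with long windows the shares were 4.58% and 1.12%. The guidance median was 0.00, and 18 loci lay above the median locus, beside 51.7% of all genes. The 2 called higher were Sema5a, at 0.78, and Sema3c, at 0.66, and within 50 kb of the start alone Sema5a stood at 0.41. The Sema5a window (gene on chromosome 15, 32244813 to 32696341) held 27.3 kb of peaks in KO cells and 14.5 kb in WT cells at day 0. The Sema3c window (chromosome 5, 17574816 to 17730268) held 14.5 kb in KO cells and 8.32 kb in WT cells. Plxna1, a plexin receptor gene, lay just short of the limit at 0.52. On the lower side Epha5 (-0.53), Unc5d (-0.50), Efna5 (-0.42), Neo1 (-0.40), Sema3e (-0.35), Efnb2 (-0.297) and Robo2 (-0.295) had the most negative values, and none passed 1.5-fold. Slit1 (0.03), Dcc (0.35) and Ephb3 (0.25) were the highest of their families. Fibroblast marker loci had a median of 0.41 in this comparison, with 1 (Postn) of 9 passing the minimum called higher.

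At day 5 the guidance loci covered fewer bp in KO cells than in WT cells, relative to the median locus. Of 36 loci, 10 were called lower in KO cells and 0 higher, beside 3.73% and 5.45% of all protein-coding genes. Of the 27 long guidance loci 37.0% were called lower and 0 higher, against 8.59% and 3.19% of all loci with windows of 200 kb or more. The guidance median was -0.24, and 6 of 36 loci lay above the median locus, beside 49.7% of all genes. The 10 were Slit2, Dcc, Unc5c, Epha3, Efna5, Sema3a, Sema3c, Sema3d, Nrp1 and Plxna4. Without subtraction of the median, the same ratios had a guidance median of 0.0655, with 6 loci at least 1.5-fold lower, since Slit2 (-0.45), Efna5 (-0.38), Nrp1 (-0.29) and Plxna4 (-0.28) then fell short.

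**Figure D2:**
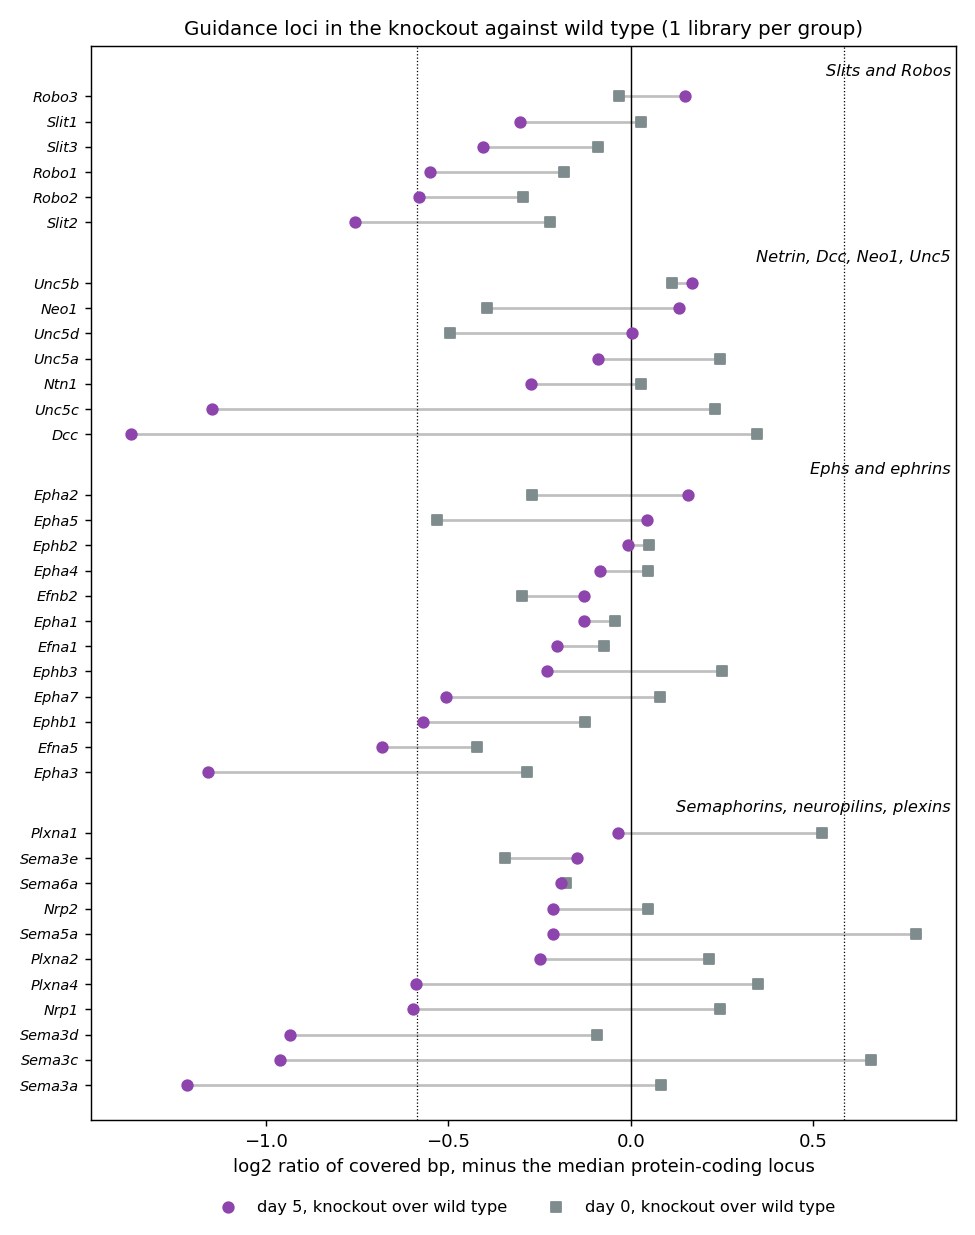
Centred log2 ratio of covered bp for KO over WT cells for each guidance gene (x axis), with day 5 as circles and day 0 as squares, grouped by family. Dotted lines mark 1.5-fold. At day 5, 10 genes lie beyond the left line and none beyond the right line.

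The largest differences at day 5 were at receptors and ligands of different families. Dcc had a ratio of -1.37 at day 5 and 0.35 at day 0. Sema3a had -1.22 at day 5 and 0.08 at day 0. Its window (chromosome 5, gene at 13124822 to 13603485) held 24.4 kb of peaks in KO cells and 46.4 kb in WT cells at day 5, and 24.8 kb in KO cells and 21.7 kb in WT cells at day 0. WT cells at day 5 alone were high at Sema3a, and the other 3 libraries lay between 21.7 and 24.8 kb. Epha3, a receptor for ephrins of the A class, had -1.16 at day 5 and -0.29 at day 0. There (chromosome 16, 63543532 to 63864175) peaks covered 11.9 kb in KO cells and 21.9 kb in WT cells at day 5, and 8.89 kb in KO cells and 10.1 kb in WT cells at day 0. In the last of 3 equal parts of the Epha3 gene, peaks were listed in WT cells at day 5 (3.38 kb) and in none of the other libraries.

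Unc5c stood at -1.15 at day 5 and 0.23 at day 0. Sema3c and Sema3d, neighbours of Sema3a on chromosome 5 whose windows do not overlap with it, stood at -0.96 and -0.94 at day 5, and at 0.66 and -0.09 at day 0. At Sema3d (12383161 to 12588953) peaks covered 14.7 kb in KO cells and 23.0 kb in WT cells at day 5, and 10.7 kb in KO cells and 10.6 kb in WT cells at day 0. At Sema3c they covered 11.6 kb in KO cells and 18.6 kb in WT cells at day 5. Of the class 3 ligands among the 36 genes, only Sema3e (-0.15) was not called at day 5. The class 3 genes outside that list, Sema3b, Sema3f and Sema3g, were not called at day 5 either.

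Slit2 (chromosome 5, 47981291 to 48307735) had a ratio of -0.76 at day 5 and -0.22 at day 0, with 19.0 kb in KO cells and 26.1 kb in WT cells at day 5. Efna5 (chromosome 17, 62602957 to 62881317) had -0.68 at day 5 and -0.42 at day 0, with 34.2 kb in KO cells and 44.5 kb in WT cells at day 5. The remaining called loci lay close to the limit. Nrp1 (chromosome 8, 128358591 to 128505476) had -0.60, with 19.5 kb in KO cells and 23.9 kb in WT cells. Plxna4 (chromosome 6, 32144543 to 32588192) had -0.59, with 21.8 kb in KO cells and 26.6 kb in WT cells. Just outside stood Robo2 at -0.58, Ephb1 at -0.57 and Robo1 at -0.55. Some of these calls depended on the window. Within 50 kb of the start alone the ratio was 0.13 at Nrp1, -0.035 at Sema3c and -0.33 at Efna5. None of these passed 1.5-fold, and the other 7 loci stayed past it. In gene bodies alone Slit2 (-0.56), Efna5 (-0.43), Nrp1 (-0.55) and Plxna4 (-0.38) fell short, and the other called loci stayed past it. The highest values at day 5 were those of Unc5b (0.17), Epha2 (0.16) and Robo3 (0.15), and Plxna1 (-0.03) was the highest of the semaphorin group.

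**Figure D3:**
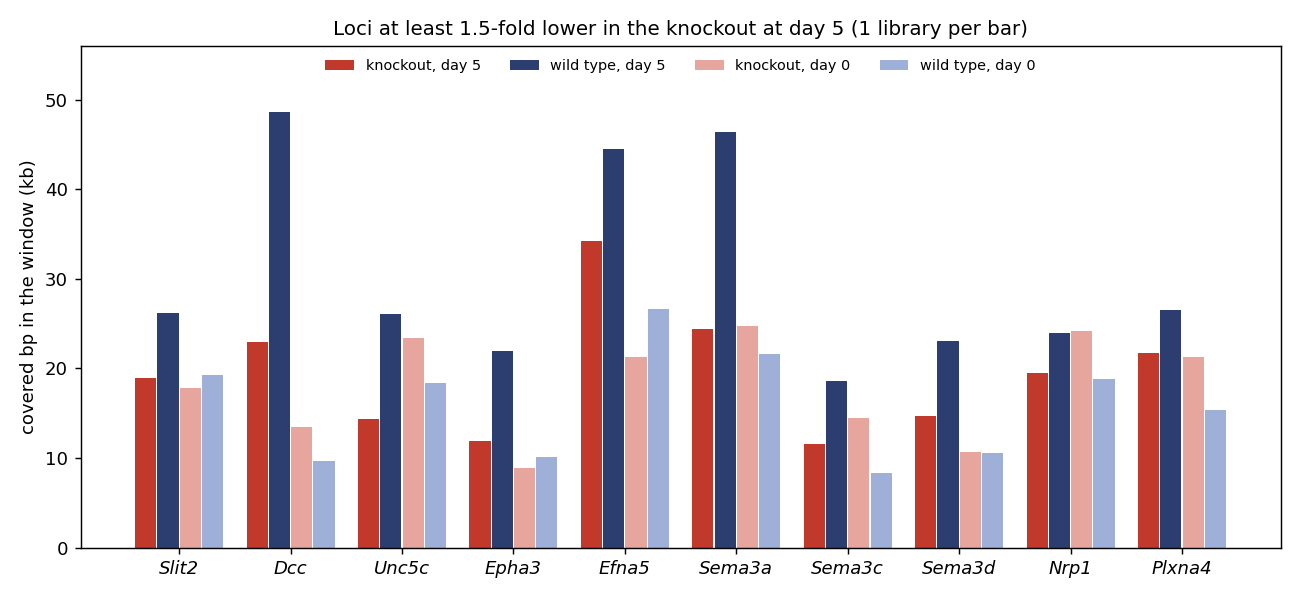
Covered bp in the window (y axis, kb) of the 10 loci at least 1.5-fold lower in KO cells at day 5, with 1 bar per library. WT cells at day 5 is the highest bar at 9 of the 10 loci, with 48.6 kb at Dcc, and at Nrp1 it lies just below KO cells at day 0.

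Added over the 36 windows without any centring, peaks covered 1028.1 kb in KO cells and 1096.2 kb in WT cells at day 5, and 927.7 kb in KO cells and 876.5 kb in WT cells at day 0. They numbered 1190 in KO cells and 1288 in WT cells at day 5, and 1094 in KO cells and 1039 in WT cells at day 0. At day 5 the order of the genotypes in these sums was thus the reverse of that of the whole lists. The whole lists covered 197.3 Mb in KO cells and 162.5 Mb in WT cells at day 5. Dcc and Sema3a weigh heavily in the sums, and many single loci, such as Epha2 and Unc5b, had the order of the whole lists. So did the uncentred guidance median given above. No guidance window overlaps another.

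Several loci that were not called in the comparison of genotypes at day 5 covered more at day 5 than at day 0 in both genotypes. Robo1 held 68.2 kb in KO cells and 80.9 kb in WT cells at day 5, and 53.7 kb in KO cells and 56.6 kb in WT cells at day 0. Slit3 held 70.5 kb in KO cells and 75.6 kb in WT cells at day 5, and 57.2 kb in KO cells and 56.5 kb in WT cells at day 0. At both loci WT cells at day 5 had the most and the day 0 libraries the least. Ephb1, which encodes a receptor for B-class ephrins, held 27.5 kb in KO cells and 33.2 kb in WT cells at day 5, and 23.1 kb in KO cells and 23.4 kb in WT cells at day 0. Epha4 held 41.3 kb in KO cells and 35.3 kb in WT cells at day 5, and 31.1 kb in KO cells and 27.8 kb in WT cells at day 0. Sema5a held 35.3 kb in KO cells and 33.0 kb in WT cells at day 5, so that the library of WT cells at day 0 (14.5 kb) stood alone as the lowest there. Plxna2 was similar, with 26.8 kb in KO cells and 25.7 kb in WT cells at day 5, and 21.2 kb in KO cells and 16.9 kb in WT cells at day 0.

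Other loci had more coverage in KO cells at day 5 than in the remaining libraries. Neo1 held 24.8 kb in KO cells and 18.2 kb in WT cells at day 5, and 17.5 kb in KO cells and 21.5 kb in WT cells at day 0. Epha5 held 12.2 kb in KO cells and 9.44 kb in WT cells at day 5, and 7.79 kb in KO cells and 10.6 kb in WT cells at day 0. Sema3e held 35.2 kb in KO cells and 31.4 kb in WT cells at day 5, and 25.02 kb in KO cells and 29.6 kb in WT cells at day 0. At each of these 3 loci the order of the genotypes was opposite at the 2 days before centring. Unc5d resembled them, except that it held slightly more in WT cells at day 0 (29.6 kb) than in KO cells at day 5 (29.1 kb). At Ntn1, Sema6a and Nrp2 the centred ratio of KO over WT cells at day 5 was -0.27, -0.19 and -0.21, and at day 0 it was 0.03, -0.18 and 0.05.

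Coverage was lowest in WT cells at day 5 at 10 loci, 8 of them among the 9 with windows under 200 kb. Epha2 held 32.1 kb in KO cells and 23.2 kb in WT cells at day 5, and 30.1 kb in KO cells and 33.8 kb in WT cells at day 0. Unc5b held 30.2 kb in KO cells and 21.6 kb in WT cells at day 5, and 33.2 kb in KO cells and 28.4 kb in WT cells at day 0. Robo3 held 22.0 kb in KO cells and 15.9 kb in WT cells at day 5, and 26.1 kb in KO cells and 24.7 kb in WT cells at day 0. At these 3 loci the uncentred coverage was higher in KO cells at both days, apart from Epha2 at day 0. The other 7 were Slit1, Unc5a, Epha1, Ephb2, Ephb3, Efna1 and Efnb2. Their centred ratios of KO over WT cells at day 5 ran from -0.30 at Slit1 to -0.01 at Ephb2.

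Ligands and receptors were both among the loci called lower in KO cells at day 5, beside 3.73% of all genes and 8.59% of long loci. Of 13 ligand genes 5 were called lower in KO cells, with a median of -0.30, and of 23 receptor genes 5 were called lower, with a median of -0.21. Among the 36 genes, 1 of 6 Slits and Robos, 2 of 7 netrin genes and 2 of 12 Ephs and ephrins were called. In the semaphorin group 5 of 11 were called, and of the 20 other semaphorin and plexin genes 1 was. Fibroblast markers had 5 of 10 loci called lower in KO cells at day 5, with a median of -0.59 (Col3a1, Dcn, Lum, Postn and Twist1). Their part in the guidance values was not tested. Neural progenitor markers had a median of -0.37 with 1 of 12 called lower, and neuronal markers one of -0.23 with 2 of 12 called lower.

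The change between days in the ratio of KO to WT cells used all 4 libraries. The day 5 ratio was at least 1.5-fold below the day 0 ratio at 10 of 36 loci and at least 1.5-fold above it at 0, beside 7.57% and 6.85% of all genes. Above the median locus lay 8 guidance loci, beside 48.7% of all genes. Of all long loci 14.7% were called below and 3.07% above. The 10 were Dcc (-1.72), Sema3c (-1.62), Unc5c (-1.38), Sema3a (-1.30), Sema5a (-0.997), Plxna4 (-0.94), Epha3 (-0.87), Sema3d (-0.84), Nrp1 (-0.84) and Epha7 (-0.59). The median over guidance loci was -0.32. At the other end stood Epha5 (0.58) and Neo1 (0.53), with Robo3 (0.18) and Sema3e (0.20) highest in their families. In Slits and Robos the lowest was Slit2, at -0.53. Because this difference reuses the libraries of the genotype comparisons and of the time courses, it is no separate evidence for either.

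Where along the genes the peaks lay was compared over the 29 genes with a known strand. Each gene was cut into 3 parts of equal length. Summed over these genes, coverage was higher at day 5 than at day 0 inside the genes and lower in the flanks, in both genotypes. Per kb of the middle part, peaks covered 65.5 bp in KO cells and 78.5 bp in WT cells at day 5, and 54.7 bp in KO cells and 52.8 bp in WT cells at day 0. In the upstream 50 kb they covered 99.5 bp in KO cells and 88.3 bp in WT cells at day 5, and 103 bp in KO cells and 93.7 bp in WT cells at day 0. In the first part they covered 75.1 bp in KO cells and 80.2 bp in WT cells at day 5, and 62.9 bp in KO cells and 58.8 bp in WT cells at day 0. In the last part they covered 63.3 bp in KO cells and 72.6 bp in WT cells at day 5, and 50.4 bp in KO cells and 51.2 bp in WT cells at day 0. The order of the 2 genotypes at day 5 was thus opposite in the gene bodies and in the upstream flanks, and the downstream flanks (96.0 bp in KO cells and 89.9 bp in WT cells) had the order of the upstream ones.

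**Figure D4:**
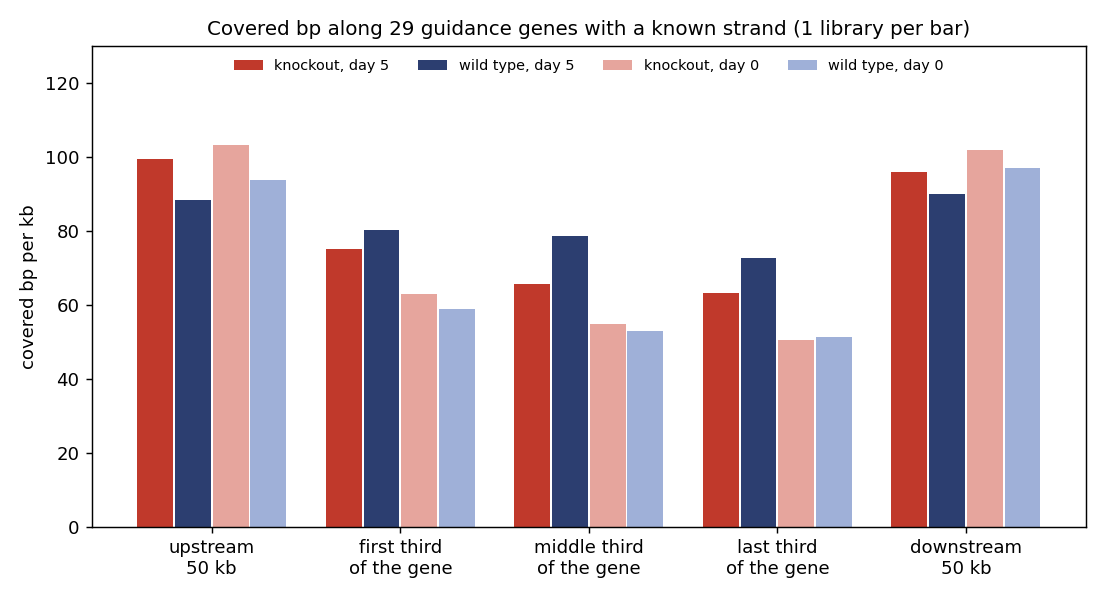
Covered bp per kb (y axis) in the flanks and 3 parts of 29 guidance genes, ordered from upstream to downstream, with 1 bar per library. WT cells at day 5 is the highest bar in each part of the gene (80.2, 78.5 and 72.6 bp per kb) and the lowest in both flanks.

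In 21 of these genes, those with windows of 200 kb or more, the log2 ratio of summed covered bp at day 5 over day 0 in the gene bodies was 0.31 in KO cells and 0.58 in WT cells, without subtraction of a median. All 1866 genes of the same kind gave 0.11 in KO cells and 0.10 in WT cells. The flanks of these 21 guidance genes also had more coverage at day 5, by less than the gene bodies, with 0.07 in KO cells and 0.20 in WT cells, and all such genes gave 0.02 and -0.15. For KO over WT cells at day 5, the gene bodies of the guidance genes gave -0.23 and those of all such genes 0.21. At day 0 these values were 0.04 and 0.20. Gene bodies of the guidance set were thus on the other side of 0 from all long genes at day 5.

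Peaks of the 4 lists were joined where they overlapped, which gave 1938 regions in the guidance windows and 328597 in the genome. Regions listed by a single library were most often those of WT cells at day 5. The share listed in KO cells at day 5 alone was 7.79% (151 regions, 95% exact binomial interval 6.64 to 9.08), beside 10.0% in the genome. The share listed in WT cells at day 5 alone was 18.8% (365 regions, 17.1 to 20.7), beside 9.16% in the genome. Regions listed at day 5 in both genotypes and at day 0 in neither made up 7.17% (139 regions, 6.06 to 8.41), beside 5.01%. Those listed in all 4 libraries made up 28.95% (561 regions, 26.9 to 31.0), beside 33.8%. Regions of day 0 made up smaller shares. Those of KO cells alone made up 6.04% (beside 7.96%), those of WT cells alone 5.16% (beside 4.87%) and those of both genotypes 4.13% (beside 5.73%). The intervals cover counting error only.

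**Figure D5:**
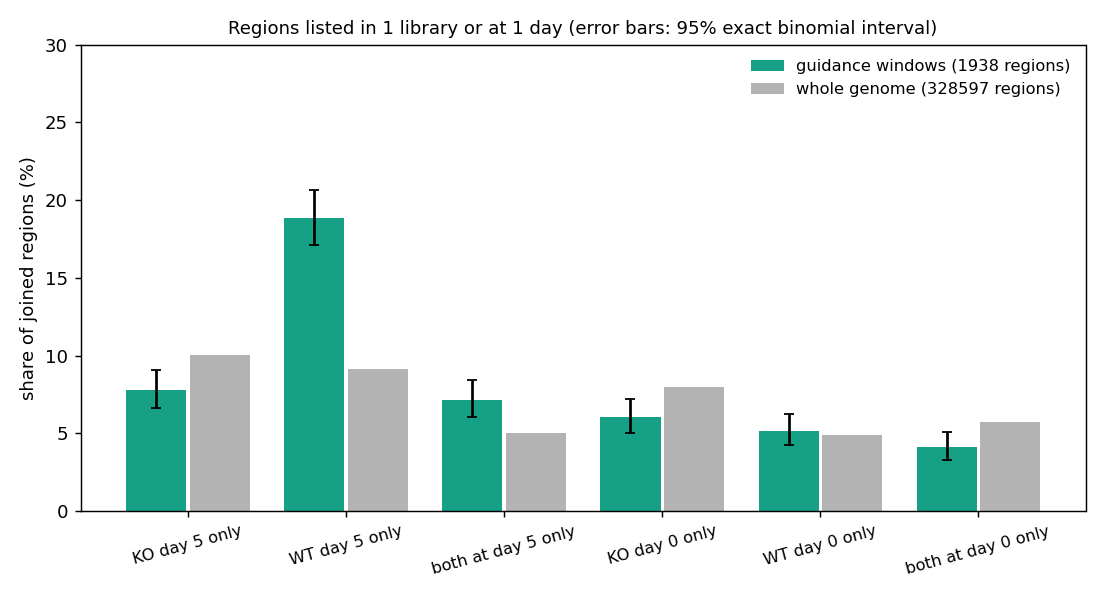
Share of joined regions (y axis, percent) listed in 1 library only or at 1 day only, in the guidance windows and in the whole genome, with 95% exact binomial intervals for the guidance windows. Regions of WT cells at day 5 alone make up 18.8% in the guidance windows and 9.16% in the genome.

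Most of these wild-type day 5 regions lay away from starts, as did the other regions not listed in every library. Of 365, 82.7% lay in the gene body (interval 78.5 to 86.5) and 1 was centred within 1 kb of a start, at a median distance of 148.2 kb. Regions listed in all 4 libraries lay in the gene body in 63.5% of cases and were centred within 1 kb of a start in 37 of 561. The share in the gene body was 68.9% for regions of KO cells at day 5 alone, 84.9% for those of both genotypes at day 5 alone, 62.4% for KO cells at day 0 alone and 63.0% for WT cells at day 0 alone. Each of these 4 classes had 0 or 1 region centred within 1 kb of a start. As flanks measured 50 kb at every gene, the gene body shares and distances also depend on gene length. No share matched for length was computed. Robo1, Dcc, Robo2, Slit3, Sema3a, Efna5 and Sema5a held 191 of the 365. As a share of a gene's own regions they ran from 56.2% at Dcc (36 of 64), 39.3% at Epha3 (11 of 28) and 34.9% at Sema3a (22 of 63) to none at Unc5b, Epha2, Ephb3 and Efna1. At Epha2, of 47 regions, 11 were listed in KO cells and not in WT cells at day 5, and 0 the converse.

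Between the genotypes at day 5, 22.2% of the regions listed in either library were listed in KO cells only (365 of 1641, interval 20.3 to 24.3), beside 30.1% in the genome. Those listed in WT cells only made up 28.2% (463, interval 26.1 to 30.5), beside 16.2%. At day 0 KO cells alone listed 19.95% (256 of 1283, 17.8 to 22.3) and WT cells alone 16.3% (209, 14.3 to 18.4), beside 21.5% and 12.3%. Over time in KO cells, 26.2% of regions were listed at day 5 only and 19.0% at day 0 only, beside 21.9% and 19.8%. In WT cells 37.0% were listed at day 5 only and 21.7% at day 0 only, beside 24.0% and 27.3%. In the guidance windows WT cells thus listed more regions at day 5 only than at day 0 only, and in the genome fewer.

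The widest regions that differed between genotypes at day 5 show single cases. Present in KO cells and not in WT cells at day 5 were chr10:60804617-60806434 in Unc5b, chr18:47245498-47247153 in Sema6a and chr8:8671094-8672711 in the flank of Efnb2, the gene of ephrin B2. The first and the last of these were also listed in both genotypes at day 0. Present in WT cells and not in KO cells were chr6:32583409-32585409 in Plxna4, chr5:13363814-13365704 in Sema3a and chr5:48060555-48062250 in Slit2. The Slit2 region, 1696 bp wide and 78.2 kb downstream of the start, was listed in WT cells at day 5 alone, whereas the Plxna4 and Sema3a regions were also listed in both genotypes at day 0. At day 0 the widest regions of KO cells alone were chr6:89307660-89309641 beside Plxna1, chr11:68279608-68281055 in Ntn1 and chr5:13149099-13150431 in Sema3a, and each was listed in both genotypes at day 5. Those of WT cells alone were chr8:8597194-8598893 beside Efnb2, the same Sema6a region on chromosome 18, and chr17:62673669-62675072 in Efna5.

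Per kb of window, guidance loci carried fewer covered bases than the average gene. Averaged over the 4 libraries, the median was 85.6 bp per kb, against 122 for all genes and 88.5 for genes with long windows. Levels ran from 19.8 at Dcc, 21.6 at Epha5 and 28.5 at Robo2 to 190 at Ephb2, 233 at Epha2 and 269 at Efna1. The windows of the 3 sparsest measured 1197.6, 463.1 and 1655.5 kb, and those of the 3 densest 288.8, 128.2 and 109.2 kb. In 14 of 36 windows another protein-coding gene was present, and at Efna1 there were 7, Efna3 among them.

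Other genes of the pathway were examined for comparison, 64 in all, from a list of the remaining family members and of cytoplasmic effectors. For KO over WT cells at day 5, 3 (4.69%) were called lower and 0 higher, with a median of -0.08, so that the share lay near the 3.73% of all genes. They were Sema6d (-1.38), a transmembrane semaphorin gene, Ntng1 (-0.68), which encodes a netrin-like membrane protein, and Vav3 (-0.64), the gene of a guanine nucleotide exchange factor. The Sema6d window held 14.3 kb in KO cells and 30.8 kb in WT cells at day 5, and 17.4 kb in KO cells and 15.1 kb in WT cells at day 0. At day 0, Mical2 (0.88) and Dpysl3 (0.72), genes of cytoskeletal effectors of semaphorin signalling, were called higher and 0 lower, beside 3.48% and 1.71% of all genes. Over time 2 of the 64 (3.12%) were called higher in KO cells, beside 5.37% of all genes, and 8 (12.5%) in WT cells, beside 9.05%, with 0 lower in either. Medians at day 5 over day 0 were -0.06 in KO cells and 0.11 in WT cells.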

How the data were processed

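Single-nucleus ATAC-seq (10x Genomics Multiome) was made from 4 libraries, 1 per group. Per the file headers, peaks were called for each library alone by cellranger-arc 2.0.0 on mm10, and the deposited values are other than counts: the start and end of each peak in bp, with no score, count or coverage. Tools listed in the submitters' processing notes are Scanpy 1.7.2 and Cell Ranger ARC 2.0.0, with mm10 as the build. Filters on nuclei, and any removal of doublets, are not given in the sources used here. Depth is unknown.

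Gene spans came from a RefSeq table of GRCm38.p6 and starts from its promoter table, which holds 17492 of the 21887 protein-coding genes. Covered bp, peak numbers and joined regions (1 bp overlap) were computed with Python 3.11.15, numpy 2.4.6 and pandas 2.3.3, exact binomial intervals (Clopper-Pearson, 95%) with scipy 1.17.1. The script was tested on simulated data. The members and lists were chosen with earlier results of these data known. Full description was given to the highest and lowest member of each family in each comparison, every member past 1.5-fold, every member whose promoter peak differed, and the 3 widest regions listed in 1 genotype per day. Alternatives covered the unit, pseudocount, window, centring, list length, minimum and promoter rule. Limits to annotated starts and to windows with no other gene were added after seeing the data. Figures were drawn with matplotlib 3.10.9.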

Additional observations from a re-analysis of the deposited data

Results flagged for a closer look

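At 8 guidance genes the ratio of KO to WT cells lay on opposite sides of the median locus at the 2 days, or the 2 genotypes moved to opposite sides over time, and the change in the ratio passed 1.5-fold. The share of all genes that met this combined rule was not computed. By the change alone, 7.57% of all genes were called below and 6.85% above. The difference was not tested, since each group held 1 library.

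Dcc had a ratio of -1.37 at day 5 and 0.35 at day 0, a change of -1.72. For Sema3c the ratio was -0.96 at day 5 and 0.66 at day 0, a change of -1.62. Unc5c had -1.15 at day 5 and 0.23 at day 0, a change of -1.38. Over time Unc5c stood at -0.66 in KO cells and 0.72 in WT cells, Sema3c at -0.28 in KO cells and 1.33 in WT cells, and Nrp1 at -0.28 in KO cells and 0.56 in WT cells, so these 3 loci went opposite ways in the 2 genotypes.

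Sema3a changed by -1.30, Sema5a by -0.997, Plxna4 by -0.94, Nrp1 by -0.84 and Epha7 by -0.59. All 8 changes were downward, that is, lower in KO relative to WT cells at day 5 than at day 0. The 8 belong to the 10 loci called in this change above, where 0 were called upward. Their shared direction thus follows from how they were picked and adds nothing to that count. All 8 use the WT day 5 library, which alone had promoter peaks at the Y-linked genes examined. Of the 10 fibroblast marker loci, 6 also changed downward by more than 1.5-fold, with a list median of -0.78. This stands beside 7.57% of all genes and 14.7% of all long loci.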

How the results depend on the processing

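No paired analysis was possible because each group has 1 library, and no replicate could be left out for the same reason. Of 44 single-gene values past 1.5-fold, between 31 and 44 remained past it across 11 alternatives, fewest when windows were 50 kb on each side of the start. That alternative turned Nrp1 in KO over WT cells at day 5 to 0.13, its change between days to 0.27 and Unc5c over time in KO cells to 0.0462, and no other single-gene value reversed. Counts of promoter peaks stayed within 1.5 times. The cause was not tested for any of the shifts given here.

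The median of KO over WT cells at day 5 became 0.0655 without centring, -0.36 in gene bodies plus 10 kb and -0.56 in windows with no other gene, a choice made after seeing the data. The number of loci lower at day 5 became 6 without centring and 7 in gene bodies. The number higher became 1 in gene bodies and in gene bodies plus 10 kb. The day 0 median became 0.10 without centring. The number higher at day 0 became 1 with a pseudocount of 2000 bp, 4 in gene bodies and 1 around starts. The number lower at day 0 became 1 in gene bodies, in gene bodies plus 10 kb and with centring on all covered bp or on long loci, and 2 around starts and when each list was reduced to its 189571 widest peaks.

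The median over time in WT cells became 0.36 around starts, 0.30 without centring, 0.36 with centring on all covered bp, 0.32 with centring on long loci and 0.78 in windows with no other gene. The number lower became 2 in gene bodies and 1 without centring or with centring on long loci. In KO cells the median over time became 0.0608 with centring on long loci and 0.38 in windows with no other gene. The number lower became 2 in gene bodies, and 0 around starts and in windows with no other gene.

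The median change of the ratio between days became -0.13 without centring, -0.21 with centring on long loci and -0.47 in windows with no other gene. The number above 1.5-fold became 1 with numbers of peaks and with a pseudocount of 100 bp, 4 in gene bodies and without centring, 2 in gene bodies plus 10 kb, and 3 around starts and with centring on all covered bp or on long loci. In gene bodies only, regions listed at day 0 alone numbered 73 in KO cells and 63 in WT cells. Depth is unknown, so no limit of detection could be set.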
